A study of Homo sapiens with 4 samples.

Results

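The translation initiation factors and cap-binding genes are 41 genes of the 28198 in the table, chosen by symbol from the known composition of each complex. No measured value entered the rule, but the choice was made with earlier results of these data known. They comprise 13 subunit genes of eIF3, 9 genes of the eIF4 family, 8 of eIF2 and its exchange factor eIF2B, 9 for start-codon selection, subunit joining and related steps, and the 2 nuclear cap-binding genes. In all, 40 of the 41 passed the filter on low values. The study used MDA-MB-231, a human cell line from a breast cancer, depleted of the m6A methyltransferase METTL3 and reconstituted by lentivirus with either METTL3-WT or METTL3-K177Q, a substitution that imitates acetylation of a lysine. Cells of both genotypes received 100 µg/mL cycloheximide for 5 min, which freezes ribosomes on mRNA, and the lysates were separated on sucrose gradients. Fractions holding single subunits and single ribosomes were pooled as the sub-polysome sample, and those holding several ribosomes per mRNA as the polysome sample. The 4 libraries analysed here, 1 for each genotype and fraction, are all replicate 2 and hold poly(A)-selected RNA. With 1 library per condition there is no replicate error, and differences between conditions could not be tested.

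Initiation begins when eIF4E binds the cap of an mRNA and eIF4G bridges it to the helicase eIF4A. The 43S complex, in which eIF3, eIF1, eIF1A and eIF5 sit on the small ribosomal subunit with eIF2, GTP and the initiator tRNA, then scans to the start codon, and eIF5B joins the large subunit. Nuclear cap-binding proteins hold the cap before eIF4E replaces them. METTL3 in the cytoplasm is known to contact eIF3h, and the study examined EIF3H, EIF3B and NCBP1 as protein partners of METTL3. The libraries measure the mRNAs that encode these proteins, not the proteins or the contacts.

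Values are FPKM, fragments per kilobase of transcript scaled to the mapped fragments of a library. The sums of FPKM were between 767949 and 1037594 per library, with between 15773 and 16193 genes above 0. No counts are given, and an approximate depth of 24800000 to 26200000 fragments per library was read from the lowest values. METTL3 was present in every library, at 9.39 (sub-polysome) and 38.7 FPKM (polysome) in METTL3-WT cells and at 5.07 and 29.5 FPKM in METTL3-K177Q cells. The labelled cell line was checked on its markers: VIM had between 677 and 1543 FPKM and CD44 between 110 and 151 FPKM, whereas the luminal genes ESR1, PGR and FOXA1 were at or under 0.0407 FPKM in every library and the epithelial gene CDH1 lay between 0.219 and 0.632 FPKM.

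The members covered a wide range of mRNA levels (plot of FPKM in the 4 libraries). EIF5A, which eases the formation of difficult peptide bonds, had the highest mean level, with 1284 FPKM in the METTL3-WT sub-polysome and 1442 FPKM in the METTL3-WT polysome library. It had 1466 and 1528 FPKM in METTL3-K177Q cells. EIF4G3, a scaffold related to EIF4G1, had the lowest mean level of the members that passed the filter, at 3.49 and 3.85 FPKM in METTL3-WT cells and 2.97 and 3.57 FPKM in METTL3-K177Q cells. FPKM is per transcript length, so levels can be set side by side: the cap-binding protein EIF4E was also low, between 4.03 and 6.17 FPKM, whereas the helicase EIF4A1 lay between 380 and 989 FPKM. The other members passing the filter lay between these extremes. EIF3C, a core subunit of eIF3, was listed at no more than 0.000404 FPKM and was the only member removed. Its near-identical copy EIF3CL had between 0.184 and 2.76 FPKM, and the counting may have split reads between them, so their levels are uncertain. The sum of both genes had a mean of 1.39 FPKM.

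**Figure D1:**
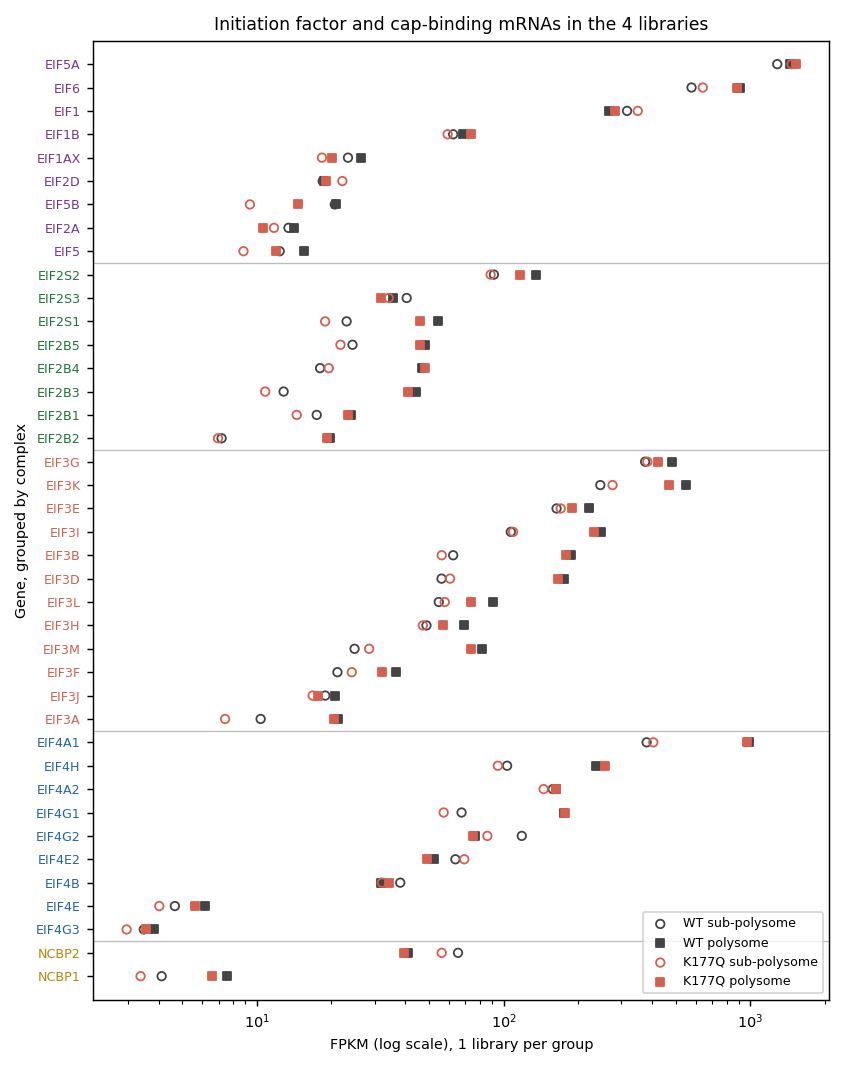
FPKM (log axis) of the 40 initiation and cap-binding genes that passed the filter, in the sub-polysome and polysome libraries of METTL3-WT and METTL3-K177Q cells, with 1 point per library and no error bar. EIF5A has the highest mean level and EIF4G3 the lowest.

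The first question was how far each mRNA lay on the polysome side of the gradient. It was measured as the log2 ratio of polysome to sub-polysome FPKM, with 0.1 FPKM added to each value, and was computed for the 10905 genes whose 4 values averaged 1 FPKM or more. Genes at 1.5-fold or beyond were called higher or lower. Initiation factor mRNAs lay further towards the polysomes than the typical gene or mRNA. The median was 0.48 in METTL3-WT cells, where it was 0.14 over all genes and 0.18 over all mRNAs. In METTL3-K177Q cells it was 0.42, against 0.16 over all genes and 0.21 over all mRNAs. Of the 40 members, 18 were at least 1.5-fold higher in the METTL3-WT polysome library, against 28.1% of all genes, and 2 were at least 1.5-fold lower, against 19.1%. Of the same 40 in METTL3-K177Q cells, 17 were higher, against 30.2% of all genes, and 0 were lower, against 21.3%. In both genotypes 15 members were at least 1.5-fold higher, against 23.2% of all genes. The members together made up 0.529% of the FPKM of the METTL3-WT sub-polysome library and 0.874% of the polysome library. In METTL3-K177Q cells the shares were 0.481% and 0.901%.

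The ratio differed between complexes (plot of polysome to sub-polysome ratios by complex). The eIF2B genes, whose products reload eIF2 with GTP, had a median of 1.37 in METTL3-WT and 1.29 in METTL3-K177Q cells. EIF2B3, the gamma subunit, had the highest ratio of all members in METTL3-WT cells. In METTL3-WT cells it had 12.8 FPKM in the sub-polysome library and 44.2 FPKM in the polysome library, and it had 10.8 and 40.8 FPKM in METTL3-K177Q cells. The log2 ratios were 1.77 and 1.91. The eIF2 genes, whose products carry the initiator tRNA, spread from EIF2S1 at 1.23 in METTL3-WT cells to EIF2S3 at -0.19.

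All 12 eIF3 genes that passed the filter were above 0 in both genotypes (with size factors from the median of gene ratios, EIF3J was -0.03 in METTL3-K177Q cells), against 57.3% of all genes in METTL3-WT and 57.2% in METTL3-K177Q cells. Their median was 0.91 in METTL3-WT and 0.58 in METTL3-K177Q cells. EIF3M had 24.9 and 82.1 FPKM in the sub-polysome and polysome libraries of METTL3-WT cells and 28.5 and 73.6 FPKM in METTL3-K177Q cells, a ratio of 1.72 and 1.37. EIF3D, the subunit that can bind a cap itself, had 56.0 and 176 FPKM in METTL3-WT cells and 60.7 and 166 FPKM in METTL3-K177Q cells, a ratio of 1.65 and 1.45. In both genotypes each of the 2 mRNAs was higher in the polysome library. At the other end of eIF3, EIF3J, a loosely bound subunit, had a ratio of 0.14 in METTL3-WT cells.

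The eIF4 family was divided. EIF4A1, EIF4G1 and EIF4H, the helicase, the scaffold and a helicase cofactor, were between 2.30-fold and 2.60-fold higher in the METTL3-WT polysome library. EIF4G2, an eIF4G relative that lacks the eIF4E-binding part, lay on the sub-polysome side, with 118 FPKM there and 76.5 FPKM in the polysome library of METTL3-WT cells, and 85.9 and 74.9 FPKM in METTL3-K177Q cells. Its log2 ratios were -0.63 and -0.20, the latter turning to 0.24 after rescaling to TPM, which gives every library the same FPKM total. EIF4E2, a cap-binding protein that acts in repression, also had the lower value in the polysome libraries. It had 63.8 and 52.5 FPKM in METTL3-WT cells and 69.3 and 48.9 FPKM in METTL3-K177Q cells, a log2 ratio of -0.28 and -0.50.

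The 2 nuclear cap-binding genes lay on opposite sides of the gradient. NCBP1 (CBP80) had 4.12 and 7.58 FPKM in METTL3-WT cells and 3.38 and 6.57 FPKM in METTL3-K177Q cells, and was 1.82-fold and 1.91-fold higher in the polysome library. NCBP2 (CBP20), the subunit that contacts the cap directly, had 65.3 and 41.2 FPKM in METTL3-WT cells and 56.1 and 39.4 FPKM in METTL3-K177Q cells. Its log2 ratio of -0.67 in METTL3-WT cells was the lowest of all members, and in METTL3-K177Q cells it was -0.51.

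**Figure D2:**
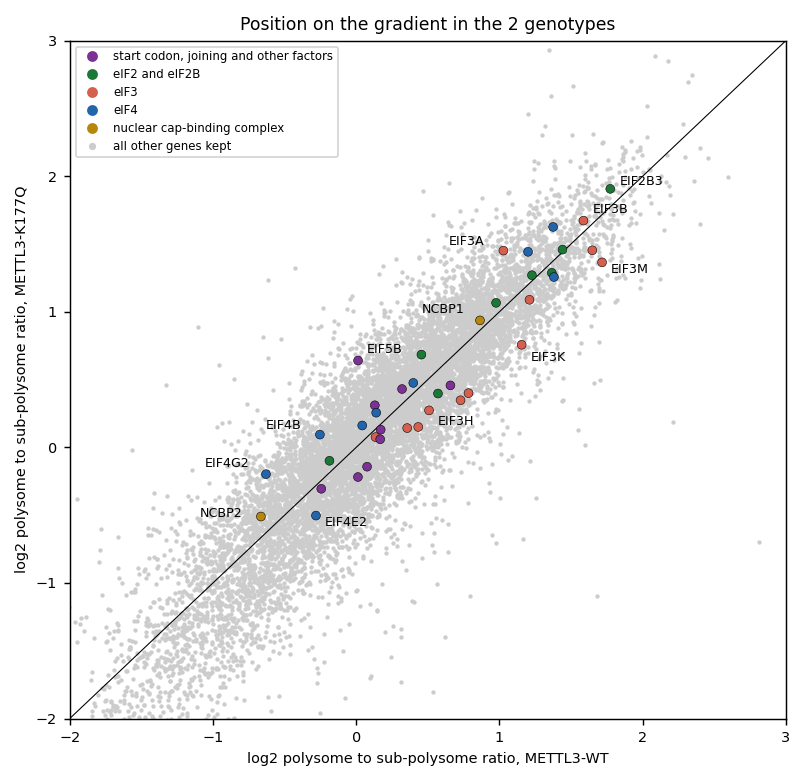
Log2 ratio of polysome to sub-polysome FPKM of each member in METTL3-WT and METTL3-K177Q cells, grouped by complex, with 1 value per genotype. All 12 eIF3 genes lie above 0 in both genotypes, and NCBP2, EIF4G2 and EIF4E2 have the lowest values in METTL3-WT cells.

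The second question was whether translation efficiency, the polysome to sub-polysome ratio of a gene, differed between the genotypes. The translation efficiency ratio was the log2 value in METTL3-K177Q cells minus that in METTL3-WT cells. As a set the initiation genes were centred where all genes were: the median ratio was -0.01 over the members and -0.01 over all genes, and 20 members were above 0, against 48.9% of all genes, and 20 below. At 1.5-fold, 1 member was higher, against 4.08% of all genes, and 0 were lower, against 7.03%. FPKM is relative to a library's total, and a shift shared by all mRNAs cannot be seen. Rescaling to TPM moved the median of all genes to 0.29, and setting totals equal with ribosomal protein genes left out (called equal totals here) moved it to 0.23. The split of all genes into 445 higher and 767 lower became 2070 and 315 with TPM and 1753 and 438 with equal totals, and the members past 1.5-fold became 4 higher and 0 lower with TPM and 3 higher and 0 lower with equal totals. Members above and below 0 numbered 36 and 4 with TPM and 35 and 5 with equal totals. Over all genes, 8769 of 11143 were above 0 with TPM and 8483 of 11556 with equal totals. Directions are therefore given relative to all genes, and many, though not all, of the signs that turn with the scaling are named.

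EIF5B, the GTPase that joins the ribosomal subunits, was the 1 member past the threshold. The gene lies on chromosome 2 from 99337371 to 99401326 (GRCh38, GENCODE 44). Its levels in METTL3-WT cells were 20.7 FPKM (sub-polysome) and 20.9 FPKM (polysome), and 9.38 and 14.7 FPKM in METTL3-K177Q cells. Both values were lower in METTL3-K177Q cells, the sub-polysome value more so. The polysome to sub-polysome ratio was 0.01 in METTL3-WT and 0.64 in METTL3-K177Q cells, a 1.54-fold higher translation efficiency. The approximate counting error of the log2 ratio of 0.63 was 0.062, so the threshold of 0.585 lay within 1 counting error of the value. With a pseudocount of 1 FPKM the ratio was 0.58, under the threshold. EIF5B overlaps exons of REV1 on the opposite strand, which had a mean of 1.96 FPKM. Whether the counting used strand is not given in the sources used here.

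The next highest ratios belonged to EIF4G2, at 0.43, and to EIF3A, the scaffold subunit of eIF3, at 0.42. EIF3A had 10.4 and 21.2 FPKM in METTL3-WT cells and 7.44 and 20.5 FPKM in METTL3-K177Q cells. For both genes the polysome values of the genotypes were close, with a log2 difference of -0.03 for EIF4G2 and -0.05 for EIF3A. The sub-polysome values were lower in METTL3-K177Q cells, with a difference of -0.46 for EIF4G2 and -0.47 for EIF3A. After rescaling to TPM both passed 1.5-fold, with ratios of 0.73 for EIF4G2 and 0.72 for EIF3A. Both overlap exons of a gene on the opposite strand, and use of strand in the counting is not given. EIF3A, with a mean of 14.9 FPKM, overlaps NANOS1, with a mean of 8.29 FPKM. EIF4G2, with a mean of 88.9 FPKM, overlaps CTR9, with a mean of 5.17 FPKM. The eIF4 family had a median of 0.12, with 7 of 9 genes above 0, against 48.9% of all genes. EIF4A1 at -0.12 and EIF4E2 at -0.22 were below 0. Both of these turned positive after rescaling to TPM, at 0.17 for EIF4A1 and 0.08 for EIF4E2. All 9 genes of the family were then above 0, against 8769 of 11143 genes.

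The lowest ratios were those of eIF3 genes. EIF3K, a small subunit at the edge of the complex, had 247 and 549 FPKM in the sub-polysome and polysome libraries of METTL3-WT cells and 276 and 467 FPKM in METTL3-K177Q cells, a ratio of -0.40 or 0.758-fold. EIF3F, an MPN-domain subunit, had 21.2 and 36.6 FPKM in METTL3-WT cells and 24.3 and 32.0 FPKM in METTL3-K177Q cells, a ratio of -0.38. EIF3L, a PCI-domain subunit, had 54.6 and 90.6 FPKM in METTL3-WT cells and 57.7 and 73.5 FPKM in METTL3-K177Q cells, also a ratio of -0.38. In FPKM as deposited all 3 mRNAs were higher in the sub-polysome and lower in the polysome library of METTL3-K177Q cells, but with TPM and with equal totals their sub-polysome values were lower too. Of the 12 eIF3 genes, 8 were above 0 in the sub-polysome comparison, against 49.4% of all genes. With TPM all 12 were below 0, against 8458 of 11143 genes, and with equal totals all 12 were, against 8688 of 11556 genes.

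Over the 12 eIF3 genes the median translation efficiency ratio was -0.22, and it turned to 0.07 after rescaling to TPM and to 0.01 with equal totals. Relative to the median of all genes, it was -0.22 in FPKM as deposited, -0.21 with TPM and -0.22 with equal totals. In FPKM as deposited, 10 of the 12 were below 0, against 51.1% of all genes. With TPM 4 were, against 2374 of 11143 genes, and with equal totals 5 were, against 3073 of 11556 genes. The 6 subunits EIF3E, EIF3F, EIF3H, EIF3K, EIF3L and EIF3M, which with EIF3A and EIF3C form the PCI and MPN octamer at the core of eIF3, had the 6 lowest ratios of all members, from -0.40 to -0.24. This grouping was described after the values had been seen, and its upper edge is not resolved. EIF3H at -0.24, with an approximate counting error of 0.039, cannot be ordered below EIF2D at -0.23, with an error of 0.091. All 6 lay under the median of all genes. Scalings shift every gene by about the same amount and so do not bear on this order. After rescaling to TPM they spanned -0.10 to 0.06, with EIF3E and EIF3H above 0, and with equal totals -0.16 to 0.00, with EIF3H just above 0. After a smooth trend on coding length was taken out, an alternative added after seeing the data, 4 of the 6 were among the lowest 6. The 5 subunits outside the octamer had a median of -0.12. After rescaling to TPM all of them were above 0, from 0.08 for EIF3G to 0.38 for EIF3B.

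EIF3H and EIF3B, the eIF3 subunits that the study examined with METTL3, had translation efficiency ratios of opposite sign in FPKM as deposited. EIF3H had 48.7 and 69.3 FPKM in METTL3-WT cells and 47.1 and 56.9 FPKM in METTL3-K177Q cells. Its ratio was -0.24, with an approximate counting error of 0.039, and it turned to 0.06 after rescaling to TPM. EIF3B, which holds the RNA-binding and scaffold part next to eIF3a, had 62.5 and 188 FPKM in METTL3-WT cells and 56.1 and 179 FPKM in METTL3-K177Q cells. Its ratio was 0.09, with an approximate counting error of 0.034, and it turned to -0.06 with the trend on coding length removed. Among all genes EIF3H stood at percentile 26.2 of the translation efficiency ratio. NCBP1 had a ratio of 0.07 with an approximate counting error of 0.116, a difference not detectable at this depth, and NCBP2 had 0.16.

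The remaining members lay in between. Of the 8 eIF2 and eIF2B genes, 6 were above 0, against 48.9% of all genes. Their median was 0.07, with EIF2B1 highest at 0.23 and EIF2S2 lowest at -0.17. With TPM, EIF2S2 was at 0.12 and all 8 were above 0, against 8769 of 11143 genes. The genes for start-codon selection, joining and other steps had a median of -0.06, which turned to 0.24 after rescaling to TPM. EIF1, which guards the fidelity of start-codon choice, had 316 and 267 FPKM in METTL3-WT cells and 350 and 283 FPKM in METTL3-K177Q cells, a ratio of -0.06 that turned to 0.24 after rescaling to TPM. Of the 39 neighbouring pairs in the order of ratios, 35 differed by less than their combined approximate counting error, so most neighbours cannot be ordered. EIF5B stood apart from EIF4G2, the next gene, by more than that error.

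Comparing each fraction between genotypes, 0 members were past 1.5-fold in the polysome libraries, where 2.13% of all genes lay past it on the higher and 3.13% on the lower side in METTL3-K177Q cells. In the sub-polysome libraries 1 member, EIF5B, was at least 1.5-fold lower, at 0.455-fold, against 2.94% of all genes, and 0 were higher, against 4.01%. In bulk RNA, a lower level in every cell and fewer cells holding the mRNA cannot be told apart. The members lay mostly on the low side: 32 of 40 were below 0 in the polysome comparison, against 53.7% of all genes, with a median of -0.10 against -0.02. After rescaling to TPM the members' median was -0.0040, against 0.07 over all genes, and 20 were below 0, against 4356 of 11143 genes. With equal totals 28 members were below 0, against 5519 of 11556 genes. In the sub-polysome comparison 25 of 40 were below 0, against 50.6% of all genes. In both fractions 21 of the 40 members, or 52.5%, were lower in METTL3-K177Q cells, against 29.8% of all genes, and 4 were higher in both, or 10%, against 25.5%. With TPM 50% of the members and 31.3% of all genes were lower in both, and with equal totals 70% and 38.2%.

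The complexes are set side by side in the plot of the genotype difference in each fraction. Of the 8 eIF2 and eIF2B genes, 7 were lower in both fractions in METTL3-K177Q cells, against 29.8% of all genes. With TPM 4 were, against 31.3%, and with equal totals 6 were, against 38.2%. All 12 eIF3 genes were below 0 in the polysome comparison, against 53.7% of all genes, with a median of -0.19. After rescaling to TPM 8 of the 12 were below 0, against 4356 of 11143 genes, with a median of -0.10. With equal totals 12 were, against 5519 of 11556 genes. EIF5, the GTPase activator of eIF2, and EIF1AX, which works with eIF1 in scanning, were lower in both fractions. EIF5 had 12.4 and 15.5 FPKM in METTL3-WT cells and 8.83 and 11.9 FPKM in METTL3-K177Q cells. Its log2 differences were -0.48 in the sub-polysome and -0.37 in the polysome libraries, and those of EIF1AX were -0.35 and -0.39. Lower values in both fractions leave the translation efficiency ratio near 0, at 0.11 for EIF5 and -0.04 for EIF1AX, the latter turning to 0.26 after rescaling to TPM.

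**Figure D3:**
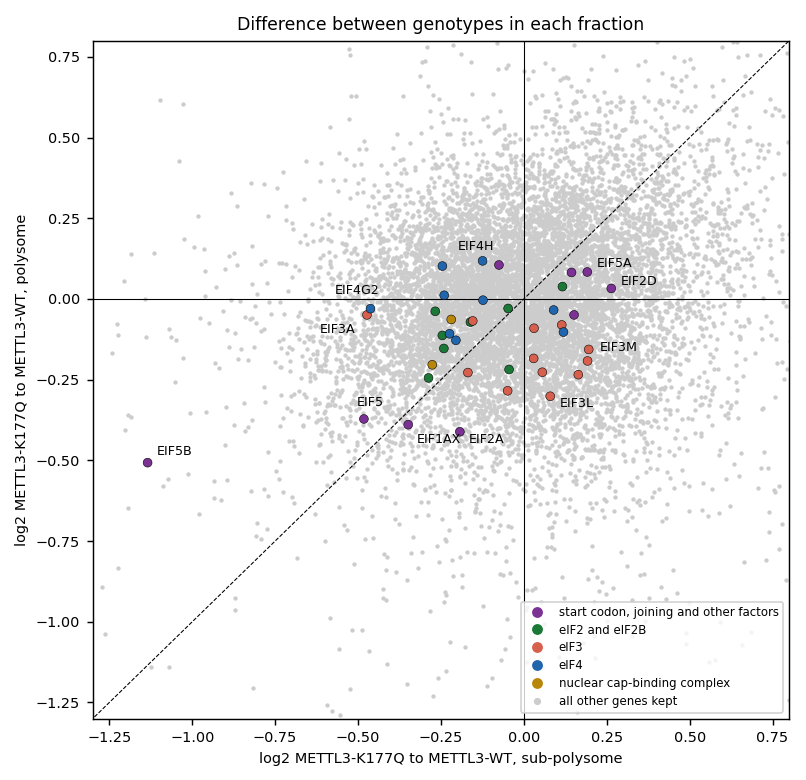
Log2 difference of METTL3-K177Q to METTL3-WT cells in the sub-polysome libraries (x axis) and polysome libraries (y axis), with members coloured by complex and all other genes kept in grey; the axes are limited, and some other genes lie outside. Distance above the dashed diagonal is a higher translation efficiency ratio, and EIF5B lies far to the left at -1.13 in the sub-polysome libraries.

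Sequence at the transcript start was examined because mRNAs of the translation machinery often begin with a 5′ terminal oligopyrimidine (TOP) tract, a C followed by an unbroken run of pyrimidines that ties translation to growth signals. A tract was called where the RefSeq-annotated start was a C followed by at least 4 pyrimidines on the sense strand, so the shortest run was 5 bases. RefSeq promoter entries on GRCh38.p14 were matched by symbol for 34 of the 41 members. EIF2S2, EIF3A, EIF3E, EIF3G, EIF3H, EIF3L and NCBP1 had none. A tract was found in 9 of the 34, or 26.5%, against 7.59% of the 8754 kept genes with an entry and 4.07% of all 35116 entries. The annotated start can differ from the start used in these cells, so a match is a description of the annotation. The 9 starts are shown with 10 bases before the start in lower case and 15 from it, the tract in capitals, 5′ to 3′ on the gene's strand. The starts of EIF3B and EIF5B, which hold no tract, follow for contrast.
EIF2A, chr3:150546777-150546801, plus strand: cgagcggtttCTCTTTCCgggacaa
EIF2D, chr1:206612451-206612475, minus strand: ccagccgggcCCTTTTCgcggccgg
EIF2S3, chrX:24054946-24054970, plus strand: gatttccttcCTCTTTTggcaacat
EIF3D, chr22:36529152-36529176, minus strand: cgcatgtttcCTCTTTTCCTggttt
EIF3F, chr11:7987327-7987351, plus strand: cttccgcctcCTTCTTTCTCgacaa
EIF3K, chr19:38619178-38619202, plus strand: tttccaccacCTCTTCCTgttcccg
EIF3M, chr11:32583821-32583845, plus strand: gcccagttccCTTTTCCggtcggcg
EIF4A2, chr3:186783567-186783591, plus strand: gcgccgctgtCTTTTCagtcgggcg
EIF4B, chr12:53006446-53006470, plus strand: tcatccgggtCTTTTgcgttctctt
EIF3B, chr7:2354817-2354841, plus strand: tcgcacgcacatggctgggctgtag
EIF5B, chr2:99337379-99337403, plus strand: ctgagaactcacaccatatgtgtcc

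The 9 members with a tract had a median translation efficiency ratio of -0.22, with 6 below 0. The 24 kept members without one had a median of 0.08, with 9 below 0. Over all genes 51.1% were below 0. With TPM and with equal totals the counts below 0 were 3 of 9 with a tract (EIF3F, EIF3K and EIF3M) and 0 of 24 without one. Over all genes 2374 of 11143 were below 0 with TPM and 3073 of 11556 with equal totals. The members' medians with and without a tract were 0.08 and 0.38 with TPM, and 0.02 and 0.32 with equal totals. In FPKM as deposited, the medians over all kept genes with an entry were -0.08 with a tract and 0.01 without. Of the 6 octamer subunits with the lowest ratios, EIF3F, EIF3K and EIF3M had an entry and each held a tract. EIF3E, EIF3H and EIF3L had no entry and could not be examined. A tract was also present in members above 0. These were EIF2S3 at 0.09, EIF4A2 at 0.12 and EIF4B, an activator of the eIF4A helicase, at 0.35. The tract of EIF4B was the shortest of the 9. A list of TOP mRNAs was taken from background knowledge: EIF3A, EIF3E, EIF3F, EIF3H and EIF4B. It had a median of -0.24, with 3 of 5 below 0, against 51.1% of all genes. EIF3H of that list turned to above 0 after rescaling to TPM, as did EIF3E.

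Coding length moved with the ratio. Over the 40 members Spearman's rho between the translation efficiency ratio and coding length was 0.27, against 0.46 over the 10304 genes with a coding length, and it is a description, since all genes share the same 4 libraries. The 4 members with at least 3000 coding bases, EIF3A, EIF4G1, EIF4G3 and EIF5B, were all above 0, as were 1025 of the 1240 genes of that length. The median of the 4 was 0.34, where the median of all genes of that length was 0.24. The 16 members under 1000 coding bases had a median of -0.06, where all genes of that length had -0.19. With the trend removed, the ratio of EIF5B was 0.40 and 0 members passed 1.5-fold, and EIF4G1 went from 0.25 to -0.0016. The part of length in the genotype difference was not tested.

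Other genes of initiation, 33 regulators and partners such as the eIF4E-binding proteins, poly(A)-binding proteins and eIF2 kinases, were set beside the members, and 31 passed the filter. Their median translation efficiency ratio was 0.10, with 19 above 0, against 48.9% of all genes. At 1.5-fold 1 was higher, against 4.08% of all genes, and 0 were lower, against 7.03%. The 1 gene was LARP1, which binds TOP tracts and the cap, with 24.8 and 25.5 FPKM in METTL3-WT cells and 19.9 and 30.9 FPKM in METTL3-K177Q cells, a 1.51-fold higher value. The other initiation genes lay on both sides of the gradient, with a median of 0.10 in METTL3-WT cells. There 9 were at least 1.5-fold higher, against 28.1% of all genes, and 9 lower, against 19.1%. PABPC1, the main cytoplasmic poly(A)-binding protein and itself a TOP mRNA, was on the sub-polysome side at -1.76 in METTL3-WT cells, and so was the repressor EIF4EBP1 at -0.87.

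Other translation gene groups were set beside the members. The 20 cytosolic aminoacyl-tRNA synthetase genes had a median polysome to sub-polysome ratio of 1.05 in METTL3-WT cells. Of them 17 were at least 1.5-fold higher, against 28.1% of all genes. Their median translation efficiency ratio was 0.08. The 6 elongation factor genes had a polysome to sub-polysome median of 0.31 in METTL3-WT cells. Their median translation efficiency ratio was -0.37, with 6 of 6 below 0, against 51.1% of all genes. With TPM 4 of 6 were below 0, against 2374 of 11143 genes. With equal totals 4 of 6 were, against 3073 of 11556 genes. The 82 ribosomal protein genes that passed the filter had a median of -0.63 and a polysome to sub-polysome median of -0.54 in METTL3-WT cells. Against these, the members' median was -0.01, and that of the 7 octamer genes of eIF3 that passed the filter was -0.35. Differences between the groups were not tested.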

How the data were processed

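Polysome profiling was analysed in 4 libraries, from MDA-MB-231 cells carrying METTL3-WT or METTL3-K177Q. The authors deposited FPKM per gene, with no counts. The submitters' processing notes name STAR 2.7, StringTie 2.1.5 and hg38; the annotation and the strand setting are not given in the sources used here. Another 4 columns of per-sample values belong to no listed sample and were not used.

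Ratios were computed as log2(FPKM + 0.1), which understates changes of low genes, for genes averaging 1 FPKM or more. With 1 library per condition no test was made. Members and lists were chosen with earlier results of these data known. All members may be named; all 4 values are given for EIF3H, EIF3B, NCBP1, members past 1.5-fold, the 3 highest and 3 lowest in either ratio, and the highest and lowest mean level. Other initiation genes are named with their values at 1.5-fold or more, and PABPC1 and EIF4EBP1 were added after their values were seen, as were the values of EIF1, EIF5 and EIF1AX.

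Coding lengths and exon overlaps are from GENCODE 44, and promoter sequences from RefSeq on GRCh38.p14. Approximate depth took the lowest cluster of FPKM times transcript length in kilobases, from 0.03 to 0.05, as 1 fragment; errors from it cover counting only. The calculation was run on simulated data with known changes well past the threshold and counting noise only. That run checks the code and does not cover variation between libraries or smaller changes. Alternatives were other pseudocounts, filters and thresholds, scaling to TPM, to equal totals without ribosomal protein genes or by size factors, centring, summed copies, and removal of a lowess trend on coding length (span 0.3), the last added after seeing the data. The software was Python 3.11.15 with statsmodels 0.14.6, scipy 1.17.1, matplotlib 3.10.9, numpy 2.4.6 and pandas 2.3.3.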

Additional observations from a re-analysis of the deposited data

Results flagged for a closer look

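In FPKM as deposited, the polysome to sub-polysome ratio of 3 members had opposite signs in the 2 genotypes. Each genotype had 1 library per fraction, and the difference was not tested. EIF2A, an alternative carrier of initiator tRNA, was at 0.08 in METTL3-WT and -0.14 in METTL3-K177Q cells, a translation efficiency ratio of -0.22. EIF2D, which can place tRNA on the small subunit without eIF2, was at 0.01 and -0.22, a translation efficiency ratio of -0.23. EIF4B was at -0.25 and 0.09, a translation efficiency ratio of 0.35. After rescaling to TPM, EIF2A and EIF2D were above 0 in both genotypes, at 0.21 and 0.29 for EIF2A and 0.15 and 0.21 for EIF2D, and their translation efficiency ratios turned to 0.08 and 0.07. With size factors, EIF4B was below 0 in both genotypes, at -0.35 and -0.02. Which members had opposite signs depended on the scaling. With TPM they were EIF1, EIF2S3, EIF4B and EIF4G2, and with size factors EIF3J, EIF4A2, EIF5A and EIF5B. EIF2A overlaps exons of SERP1 on the opposite strand, which had a mean of 40.8 FPKM, and whether the counting used strand is not given in the sources used here.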

How the results depend on the processing

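No paired analysis was possible because each condition has 1 library, all of replicate 2, and no test was made. The number of members at least 1.5-fold higher in translation efficiency was 1, and it was 0 with a pseudocount of 1 FPKM, 0 at a 2-fold threshold, 0 with the trend on coding length removed, 4 after rescaling to TPM (EIF3A, EIF4B, EIF4G2 and EIF5B) and 3 when totals were set equal with ribosomal protein genes left out (EIF3A, EIF4G2 and EIF5B). No member was at least 1.5-fold lower under any of the alternatives. After rescaling to TPM the median translation efficiency ratio was 0.29 over the members, 0.0737 over eIF3 (reversed from -0.22), 0.36 over eIF2 and eIF2B, 0.42 over the eIF4 family and 0.39 over the other initiation genes. The members' median was then -0.0040 in the polysome and -0.33 in the sub-polysome comparison. With equal totals the translation efficiency medians were 0.22 over the members, 0.0120 over eIF3 (reversed), 0.30 over eIF2 and eIF2B, 0.36 over the eIF4 family and 0.33 over the other initiation genes, and the members' sub-polysome median was -0.32. Both scalings move every gene of a library by the same factor, apart from the pseudocount and the filter.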
